A study of Mus musculus with 15 samples.

Results

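Chemokines are small secreted proteins, and their receptors are G protein-coupled receptors on the cells that they attract. The genes examined here were the 63 protein-coding entries of the liver and lung count tables whose symbol was that of a numbered CC or CXC chemokine or receptor, or was Cx3cl1, Cx3cr1, Xcl1 or Xcr1. They were 63 of 54532 genes in each table, of which 22046 were protein coding. The 63 entries carried 57 distinct symbols, because Ccl19, Ccl21a, Ccl21b, Ccl21c and Ccl27a each had more than 1 entry, and 7 entries lay on unplaced scaffolds of the assembly. They held 30 CC ligand entries, 12 CXC ligands, the 2 ligands Xcl1 and Cx3cl1, and 19 receptors. Membership was set by name and gene type.

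The mice were wild type C57BL/6J males with a labelled age of 28 weeks, a span that in the methods is the whole feeding period, adaptation included, and not the age. The control group (CS) ate a control diet, and the treated group (PS) ate a diet with 2% phytosterols, which are plant sterols that compete with cholesterol for uptake in the gut. Whole liver was sequenced from 4 CS and 5 PS mice and whole lung from 3 CS and 3 PS mice, and 6 mice gave both tissues. Each library came from 1 mouse, and the comparison of interest was PS against CS within each tissue.

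Each chemokine binds a limited set of receptors, and the receptor decides which leukocyte responds. Inflammatory chemokines such as Cxcl1 and Ccl2 are induced in injured or infected tissue and recruit neutrophils and monocytes, whereas homeostatic chemokines such as Cxcl12, Cxcl13, Ccl19 and Ccl21 place stem cells and lymphocytes in resting organs. The liver and the lung both hold large resident pools of macrophages and lymphocytes, and in both organs epithelial and endothelial cells also make chemokines.

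Many chemokine genes arose by duplication and sit side by side. Cxcl5, Cxcl3, Cxcl15, Cxcl1 and Cxcl2 lay within chr5:90759360-90905938, Ccl22, Cx3cl1 and Ccl17 within chr8:94745590-94812036, and 8 receptors within chr9:123678439-124147699 (mm10). Promoter windows of 250 bases before the gene start were taken from RefSeq (GRCm38.p6), where 42 of the 57 symbols had at least 1 window and 49 windows in all. The windows below are printed 5′ to 3′ on the strand of the gene. Cxcl15 (chr5:90794284-90794533, + strand) and Cxcl12 (chr6:117168285-117168534, + strand) are shown because their transcripts were the most abundant of these genes in the lung and the liver. Cxcl1 (chr5:90890995-90891244, + strand) and Cxcl9 (chr5:92328080-92328329, − strand) are shown for the liver values given further on, and Ccl27a (chr4:41774177-41774426, − strand, 1 of 3 windows of this gene) and Ccl17 (chr8:94810203-94810452, + strand) for the lung values. Capitals mark matches, on either strand, to the NF-κB motif in a 10-letter form (GGG, any 2 bases, TTTCC) and a 9-letter form (GGG, any base, TTTCC), to the TATA box TATAAA and to the interferon-stimulated response element (TTTC, any 2 bases, TTTC). A 10-letter match can overlap a 9-letter one.
Cxcl15 promoter: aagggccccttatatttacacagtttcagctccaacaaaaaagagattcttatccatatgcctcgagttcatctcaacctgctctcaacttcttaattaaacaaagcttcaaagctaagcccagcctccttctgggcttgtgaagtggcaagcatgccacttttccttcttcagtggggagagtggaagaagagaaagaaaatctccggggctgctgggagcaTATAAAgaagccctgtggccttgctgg
Cxcl12 promoter: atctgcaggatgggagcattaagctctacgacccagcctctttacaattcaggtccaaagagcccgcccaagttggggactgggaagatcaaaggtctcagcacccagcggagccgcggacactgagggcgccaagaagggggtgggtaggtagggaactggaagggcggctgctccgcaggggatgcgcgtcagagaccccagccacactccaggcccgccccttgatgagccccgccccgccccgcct
Cxcl1 promoter: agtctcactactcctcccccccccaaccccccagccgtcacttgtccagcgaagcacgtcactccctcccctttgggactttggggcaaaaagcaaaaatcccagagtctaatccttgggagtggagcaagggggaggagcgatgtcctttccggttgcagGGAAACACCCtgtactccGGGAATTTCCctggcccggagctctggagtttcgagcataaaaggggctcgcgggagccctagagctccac
Cxcl9 promoter: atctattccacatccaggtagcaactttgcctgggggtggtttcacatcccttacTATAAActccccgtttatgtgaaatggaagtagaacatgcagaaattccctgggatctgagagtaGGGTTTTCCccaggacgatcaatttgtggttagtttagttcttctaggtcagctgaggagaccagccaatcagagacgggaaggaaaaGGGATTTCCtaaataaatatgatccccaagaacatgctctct
Ccl27a promoter: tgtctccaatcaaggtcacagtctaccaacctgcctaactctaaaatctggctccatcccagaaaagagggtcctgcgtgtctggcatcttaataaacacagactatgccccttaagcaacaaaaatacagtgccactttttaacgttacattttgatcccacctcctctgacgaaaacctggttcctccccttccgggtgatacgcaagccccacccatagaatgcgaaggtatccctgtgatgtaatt
Ccl17 promoter: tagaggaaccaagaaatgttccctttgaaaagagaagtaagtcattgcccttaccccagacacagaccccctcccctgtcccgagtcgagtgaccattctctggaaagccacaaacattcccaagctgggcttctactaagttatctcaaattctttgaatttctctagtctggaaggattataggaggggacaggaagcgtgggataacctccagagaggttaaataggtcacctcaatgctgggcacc

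The Cxcl1 window held the 10-letter NF-κB motif at 71 to 62 bases before the start and, on the other strand, at 89 to 80 bases before it. The Cxcl9 window held the 9-letter form at 130 to 122 and at 42 to 34 bases before the start, and TATAAA at 195 to 190. The Cxcl15 window held TATAAA at 27 to 22 bases before the start, and none of the motifs was found in the windows of Cxcl12, Ccl27a and Ccl17. Over all windows of the same length the 10-letter motif occurred in 1.41%, against 6 of the 49 chemokine and receptor windows (12.2%), namely those of Ccl20, Ccl9, Ccr3, Cxcl1, Cxcl2 and Cxcl3. The 9-letter form occurred in 1.46% of all windows and in 3 of the 49, those of Ccl20, Ccl9 and Cxcl9. TATAAA occurred in 12.4% of all windows and in 13 of the 49, and the interferon element in 2.98% and in 3 of the 49, those of Ccl19, Cxcl10 and Cxcl14. A match is a run of letters in the window and was not tested as a binding site.

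The libraries held 14410117 to 17625179 counted reads in the liver and 17934930 to 19396057 in the lung. The tissue labels matched their markers, since 8 hepatocyte genes summed to 83025 to 139278 CPM (counts relative to library size) in the livers and 28.2 to 160 CPM in the lungs, and 8 alveolar type II cell genes to 20985 to 35676 CPM in the lungs and 14.1 to 42.6 CPM in the livers. One library stood apart: Liver CS 2 had a median correlation of 0.916 with the other livers of its group, whereas the other 14 libraries lay between 0.964 and 0.985. Its weight in the calls that involve the liver is given beside them. In whole tissue, fewer cells of a type and less RNA per cell cannot be told apart.

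Relative to library size, the lung contained far more chemokine and receptor RNA than the liver, and in each tissue 1 ligand led. Levels between genes are given in FPKM, which are fragment counts divided by gene length and library size, and which the authors scaled within each tissue table. The 63 entries summed to 75.0 to 97.8 FPKM in Liver CS, 73.0 to 94.6 in Liver PS, 1092 to 1307 in Lung CS and 846.5 to 1327 in Lung PS. The number with a group mean of at least 1 FPKM was 11, 10, 37 and 35 in the same order. The scaling used further on to compare the tissues shifted log2 fold changes, lung against liver, by −1.38 relative to library totals. It was not applied to these sums.

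Cxcl15, also called lungkine, is a CXC ligand of the lung epithelium, and it made up 60.1% ± 1.41 (SD, n = 3) of the summed level in Lung CS and 60.2% ± 4.56 (SD, n = 3) in Lung PS. Its FPKM were 778, 645 and 675 in the Lung CS libraries and 729, 785 and 527 in the Lung PS libraries. Every lung value was several times that of any other member, and the diet groups overlapped. No read was counted for it in any of the 9 livers. Cxcl17, a mucosal ligand, followed at 60.8, 80.2 and 75.8 FPKM in Lung CS and 96.2, 24.8 and 51.6 in Lung PS. The PS lungs spread on both sides of the CS lungs. Ccl5, made by T cells and natural killer cells, stood at 63.2, 45.8 and 31.5 FPKM in Lung CS and at 94.7, 78.8 and 20.1 in Lung PS, so that the lowest and the highest lung were both PS. Ccl6, a macrophage ligand, had 73.4, 50.1 and 43.8 FPKM in Lung CS and 47.7, 59.0 and 36.5 in Lung PS. Cxcr4, the receptor of Cxcl12, had 52.5, 40.1 and 34.1 FPKM in Lung CS and 57.9, 47.9 and 34.7 in Lung PS. Cxcl16, which is made as a membrane-bound ligand of Cxcr6, had 30.3, 20.6 and 20.6 FPKM in Lung CS and 26.8, 26.1 and 23.9 in Lung PS. For these last 3 genes the diet groups overlapped. Only Cxcl15 stood clear of the next gene in both lung groups, and the ranges of the 4 genes that followed it overlapped from each to the next.

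In the liver, Cxcl12, the homeostatic ligand that retains stem cells and lymphocytes, was the most abundant of these genes. Its FPKM were 45.9, 16.8, 41.5 and 33.6 in Liver CS and 24.0, 31.2, 26.7, 41.0 and 34.7 in Liver PS, with the lowest value in Liver CS 2. It made up 42.0% ± 17.0 (SD, n = 4) of the summed level in Liver CS and 37.3% ± 6.91 (SD, n = 5) in Liver PS. Ccl9, a macrophage ligand, followed at 10.1, 7.51, 11.5 and 15.7 FPKM in Liver CS and 10.5, 15.6, 13.2, 14.7 and 21.2 in Liver PS. Ccl27a, a ligand known from skin keratinocytes, ranged from 2.35 to 14.1 FPKM in Liver CS and from 2.67 to 12.4 in Liver PS. The highest CS value of Ccl27a was that of Liver CS 2, and the other 3 CS livers lay at or under 4.99 FPKM. Cxcl1, Ccl5 and Cxcl9 came next, with means over the 9 livers of 5.73 ± 6.10, 5.46 ± 4.20 and 3.31 ± 1.63 FPKM (SD, n = 9). The SD of Cxcl1 exceeded its mean, and from Ccl9 down the ranges of neighbours in this order overlapped.

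**Figure D1:**
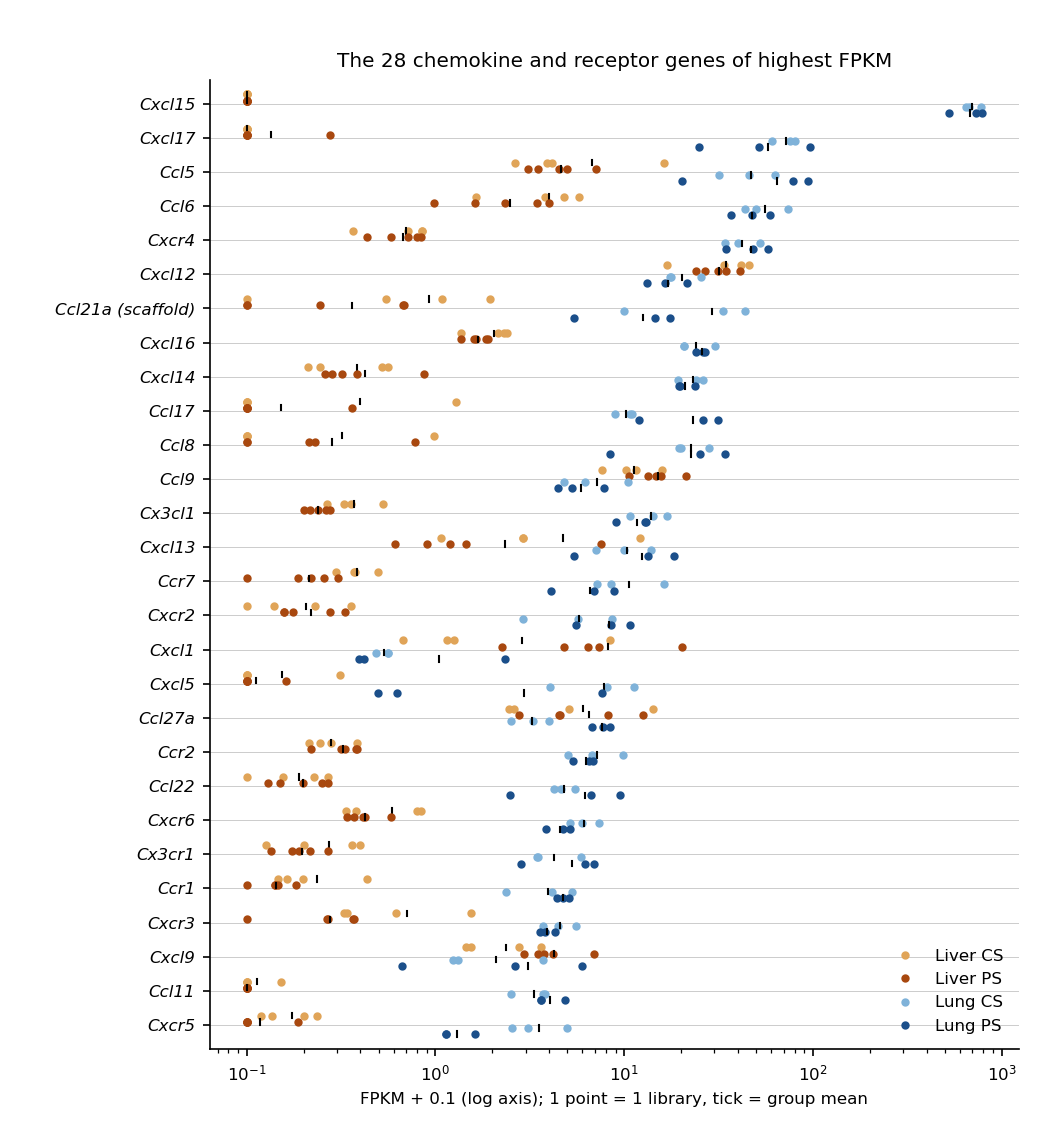
Level of the 28 most abundant chemokine and receptor genes (rows) in each library (points), as FPKM plus 0.1 on a log axis, with liver and lung, CS and PS in separate colours and a tick for each group mean. Cxcl15 sits at 527 to 785 FPKM in the 6 lungs and Cxcl12 at 16.8 to 45.9 FPKM in the 9 livers.

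On the control diet, the genes measurable in both tissues split between them. Higher in the lung were Cxcl16, Ccl6, Cx3cl1, Ccl5, Cxcr4, Ccr2 and Xcr1, and higher in the liver Cxcl12, Ccl9, Cxcl1, Ccl27a, Ccl25 and Cxcl9. Of these liver genes, only Cxcl12 kept its call in each fit with library totals. Ccl27a, Ccl25 and Cxcl9 were not higher in the liver with library totals and without Liver CS 2. The comparison was an edgeR fit over all 15 libraries, scaled by trimmed mean of M-values (TMM), at an adjusted p under 0.05. Of the 16 genes that passed the filter on low counts in each tissue alone, 7 were higher in the lung (43.8%, against 27.1% of the 12398 genes that passed in both) and 6 in the liver (37.5%, against 35.5%). In the fit as a whole 46 of the 63 entries were tested. Of these, 29 passed the filter in the lung only and 1, Ccl24, in the liver only. The filter thus favoured a difference in these genes, although not all were called (Ccl2: −0.28, edgeR adjusted p = 0.631). The counts over the 46 are therefore a description: 28 were higher in the lung (60.9%, against 37.0% of all 17696 genes tested), 13 of them receptors and 15 ligands, and 7 were higher in the liver (15.2%, against 30.0% of all genes), all of them ligands. The split depended on the scaling between the tissues. With library totals alone, an alternative added after seeing the data, the median log2 fold change over all genes, lung against liver, was 1.55 in place of 0.18. Of the 16 genes, 8 were then higher in the lung (64.5% of the genes that passed in both) and 2 in the liver (12.1%), and of the 46, 35 (66.8% of all genes) and 2 (12.9% of all genes).

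Among receptors, Cxcr4 was higher in the lung by 4.81 on the log2 scale (SE 0.33), Ccr2, the monocyte receptor, by 3.94 (SE 0.34), and Ccr7, which leads dendritic cells and T cells to lymph nodes, by 3.85 (SE 0.50). Cxcr2, the neutrophil receptor, was higher by 4.36 (SE 0.66) and Cxcr5, the B cell receptor of Cxcl13, by 4.18 (SE 0.72). Cxcr4 and Ccr2 passed the filter in both tissues, with edgeR adjusted p of 1.79e-09 and 2.94e-08. Ccr7, Cxcr2 and Cxcr5 passed it in the lung only, which favoured a difference, so their values are a description. Cxcr1 and Ccr10, which also passed in the lung only, were not called, with edgeR adjusted p of 0.557 and 0.367. Among ligands, Cxcl14, which passed the filter in the lung only, was higher in the lung by 4.96 (SE 0.46). Cx3cl1, the membrane-bound fractalkine, was higher by 4.34 (SE 0.29), Ccl6 by 2.48 (SE 0.43) and Cxcl16 by 2.28 (SE 0.22). The lung call of Ccl5 was kept in 11 of the 15 fits that left out 1 library (largest edgeR adjusted p = 0.094).

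Several genes had no count in any CS liver, so their folds are lower bounds against a floor of 3 counts over the 4 CS livers, which corresponds to 0.0666 CPM on the scale of the fit. Cxcl15 was at least 12639-fold higher in the CS lungs, Cxcl17 at least 468-fold and Ccl20, the ligand of Ccr6, at least 30.1-fold. Ccr4, the receptor of Ccl17 and Ccl22, was at least 12.7-fold higher, Ccl12 at least 7.23-fold and Cxcl3 at least 6.53-fold. These bounds cover counting error only.

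The 7 ligands called higher in the liver under TMM were Cxcl12, Ccl9, Cxcl1, Ccl24, Ccl27a, Ccl25 and Cxcl9. Ccl24 passed the filter in the liver only, which favoured its call, so its values are a description. Their log2 differences, lung against liver, were −2.12 (SE 0.33) for Cxcl12, −2.01 (SE 0.34) for Ccl9, −3.96 (SE 1.03) for Cxcl1, −2.64 (SE 0.63) for Ccl24, −2.24 (SE 0.59) for Ccl27a, −1.63 (SE 0.34) for Ccl25 and −1.50 (SE 0.61) for Cxcl9. With library totals alone, Cxcl12 (−0.75) and Cxcl1 (−2.58) stayed past the threshold, and Ccl9 (−0.62, edgeR adjusted p = 0.0785), Ccl24 (−1.27, adjusted p = 0.0683), Ccl27a (−0.84, adjusted p = 0.165), Ccl25 (−0.25, adjusted p = 0.525) and Cxcl9 (−0.14, adjusted p = 0.837) did not. All 7 kept their direction under that scaling. Liver CS 2 held much of the liver signal of Cxcl1 and Ccl27a. Under TMM and without this library the differences were −2.43 (SE 0.85) for Cxcl1, −1.41 (SE 0.45) for Ccl27a and −1.23 (SE 0.27) for Ccl25, all still past the threshold, with Ccl27a at an edgeR adjusted p of 0.0104 and Cxcl1 at 0.0195. With library totals and without this library, only Cxcl12 (−0.99) and Ccl9 (−0.78) of the 7 passed, Cxcl1 was −1.05 (SE 0.79, edgeR adjusted p = 0.227), and Ccl27a (0.0066), Ccl25 (0.15) and Cxcl9 (0.13) were no longer higher in the liver. The Cxcl9 call under TMM was also lost without Liver CS 1, Liver CS 2, Lung CS 2 or Lung CS 3 (largest edgeR adjusted p = 0.144).

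In the lung, 2 genes changed with the PS diet: Ccl27a rose and the B cell receptor Cxcr5 fell. Of the 63 entries, 45 passed the filter in the lung, 3 had no count in any lung, 5 had at most 3 counts in any lung, and the other 10 were also too low to be tested, with at most 47 counts in a library. At an edgeR adjusted p under 0.05, 2 of the 45 were called (4.44%), against 9.22% of all 16717 genes tested. At an unadjusted p of at most 0.05, 7 were called (against 30.1% of all genes), 3 of them higher on PS (15.6% of all genes) and 4 lower (14.5% of all genes). The 3 CS and 3 PS lungs did not overlap in CPM for 10 of the 45 (22.2%, against 36.0% of all genes). By each of these counts the share among chemokines and receptors was below that over all genes. Their median log2 fold change was −0.00, with 22 higher and 23 lower, against 0.01 over all genes.

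**Figure D2:**
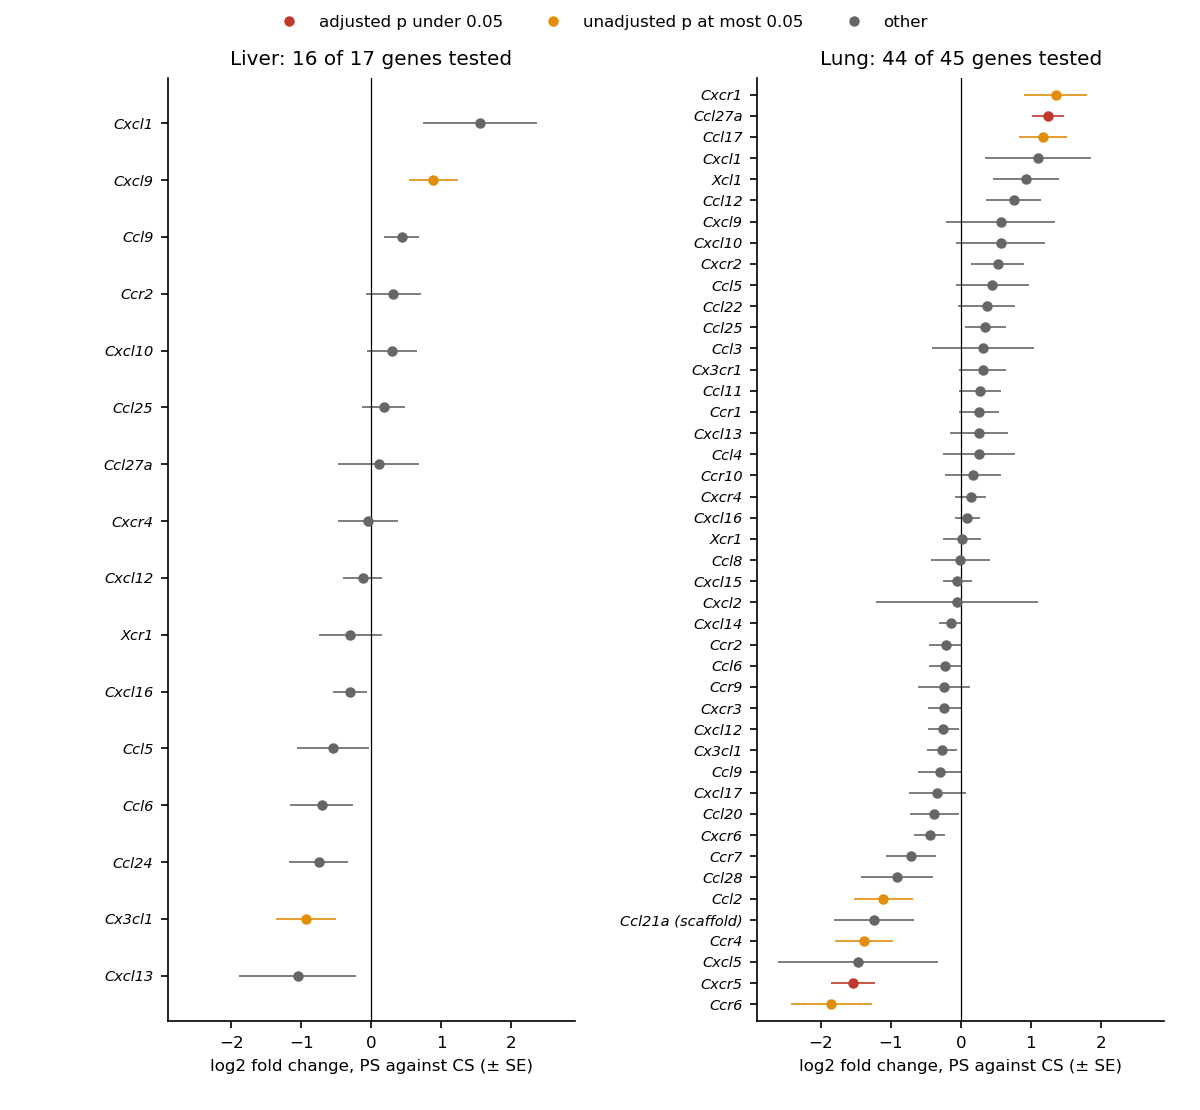
Log2 fold change of PS against CS (points, with the standard error as bars) for chemokine and receptor genes tested in the liver (left, 16 of 17 drawn) and the lung (right, 44 of 45 drawn), coloured by call. In the lung Ccl27a (1.24) and Cxcr5 (−1.53) pass an adjusted p of 0.05, and in the liver none does.

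Ccl27a (chr4:41769467-41774247, − strand, mm10), which signals through Ccr10, had 5.71, 7.56 and 9.28 CPM in the CS lungs and 15.6, 19.5 and 18.3 CPM in the PS lungs. All 3 PS lungs lay above all 3 CS lungs. The log2 fold change was 1.24 (SE 0.23, edgeR adjusted p = 0.0240). Its exons overlap those of Il11ra1 on the other strand by 8 bases, and Il11ra1 had 68.3 to 85.0 CPM in CS and 89.1 to 123 CPM in PS lungs (log2 fold change 0.41, edgeR adjusted p = 0.140). Because the strand setting of the counting was not given in the sources used here, reads from such overlaps cannot be assigned with certainty. Ccr10, the receptor of Ccl27a, lay between 1.01 and 2.15 CPM in all 6 lungs, and its diet groups overlapped (edgeR adjusted p = 0.804).

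Cxcr5 (chr9:44511787-44561877, − strand, mm10), which guides B cells and follicular helper T cells toward Cxcl13, had 16.2, 9.97 and 8.20 CPM in the CS lungs and 4.97, 3.41 and 3.48 CPM in the PS lungs. Each PS lung was below every CS lung. The log2 fold change was −1.53 (SE 0.31, edgeR adjusted p = 0.0301). Its ligand Cxcl13 had 7.93, 11.4 and 15.8 CPM in CS and 20.8, 15.1 and 6.18 CPM in PS, with overlapping groups (edgeR adjusted p = 0.707). The exons of Cxcr5 overlap those of Bcl9l on the other strand by 110 bases, and Bcl9l had 58.0 to 69.2 CPM in CS and 35.6 to 74.7 CPM in PS lungs (edgeR adjusted p = 0.626). Of 10 B cell markers, 8 had a lower fitted level in the PS lungs, 3 of the 10 at an unadjusted p of at most 0.05 (Cd79b, Ms4a1 and Cr2, against 30.1% of all genes), none at the adjusted threshold. None of the 10 was at 0, their median log2 fold change was −0.40, and their summed level was 141 to 240 CPM in CS and 109 to 168 CPM in PS lungs. The part of B cell content in the Cxcr5 difference was not tested.

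Both calls depended on which lungs were included. Without Lung CS 1, CS 2, CS 3 or PS 2, neither gene passed the adjusted threshold, and the share of all genes called was 0.134%, 0.151%, 0% and 0.0528% in the same order. Without Lung PS 1, the called members were Ccl27a, Cxcr5 and Cxcl5 (17.1% of all genes called), and without Lung PS 3 they were Ccl27a, Cxcr5 and Ccl17 (13.2%). Over these 6 fits the log2 fold change of Ccl27a stayed between 1.05 and 1.46, with an edgeR adjusted p between 0.0125 and 0.103, and that of Cxcr5 between −1.74 and −1.23, with an adjusted p between 0.0164 and 0.107. Cxcl5, an epithelial ligand for neutrophils, had 14.9, 7.35 and 20.8 CPM in CS and 13.9, 0.726 and 0.993 CPM in PS lungs, so that Lung PS 1 lay with the CS lungs and the other PS lungs far below them. With all 6 lungs its edgeR adjusted p was 0.433.

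A further 5 genes had an unadjusted p of at most 0.05 in the lung, and none of them passed the adjusted threshold with edgeR and the filter. With the DESeq2 Wald test Ccl17 (adjusted p = 0.0103) and Ccr6 (adjusted p = 0.0323) did, where 18.5% of all genes were called, and so they did with edgeR and no filter (adjusted p of 0.0130 and 0.0291, 8.02% of all genes). Ccl17, a ligand made by dendritic cells, had 4.50, 5.60 and 5.48 CPM in CS and 15.9, 13.2 and 6.18 CPM in PS lungs. The groups did not overlap, but Lung PS 3 lay close to the CS lungs (log2 fold change 1.17, SE 0.34, edgeR adjusted p = 0.0588). Of 8 dendritic cell markers, none of them at 0, 5 had a higher fitted level in PS lungs, and Zbtb46 (0.42), Itgax (0.56) and Clec9a (0.43) did so at an unadjusted p of at most 0.05 (30.1% of all genes) and none at the adjusted threshold. The list summed to 687 to 843 CPM in CS and 659 to 748 CPM in PS, most of it H2-Ab1 (564 ± 74.0 CPM in CS and 489 ± 60.6 CPM in PS, SD, n = 3 each). The part of dendritic cell content in the Ccl17 values was not tested. Ccr4, the receptor of Ccl17, differed the other way, at 1.42, 1.85 and 1.19 CPM in CS and 0.533, 0.726 and 0.441 CPM in PS (−1.38, SE 0.41, edgeR adjusted p = 0.0632). Ccl22, the other ligand of Ccr4, had 12.4, 9.61 and 10.6 CPM in CS and 21.5, 15.1 and 5.63 CPM in PS, with overlapping groups (edgeR adjusted p = 0.567). Ccr6, the receptor of Ccl20 on B cells and helper T cells, had 2.17, 1.39 and 2.61 CPM in CS and 0.533, 1.00 and 0.166 CPM in PS. No PS lung reached the lowest CS lung (−1.84, SE 0.57, edgeR adjusted p = 0.0717). The B cell marker values given with Cxcr5 stand beside Ccr6 as well. Ccl20 itself overlapped between the groups, at 2.88 to 4.50 CPM in CS and 1.93 to 3.79 CPM in PS.

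Cxcr1, a neutrophil receptor, had 0.657, 0.411 and 0.380 CPM in CS and 1.18, 1.67 and 0.883 CPM in PS lungs, all PS values being the higher (1.35, SE 0.45, edgeR adjusted p = 0.0862). Cxcr2, the more abundant neutrophil receptor, lay at 8.58 to 25.7 CPM in CS and 16.7 to 32.1 CPM in PS and overlapped (edgeR adjusted p = 0.372). Of 7 neutrophil markers tested, 5 had a higher fitted level in PS, 1, Csf3r, passed the adjusted threshold (9.22% of all genes), and the summed level of the list was 115 to 354 CPM in CS and 223 to 479 CPM in PS lungs, with none of its genes at 0. Whether neutrophil content has a part in the Cxcr1 values was not tested. Ccl2, the main ligand of the monocyte receptor Ccr2, had 1.31, 0.925 and 1.19 CPM in CS and 0.592, 0.391 and 0.607 CPM in PS, again without overlap (−1.10, SE 0.41, edgeR adjusted p = 0.114). Ccr2 itself overlapped, at 33.2 to 65.6 CPM in CS and 35.9 to 45.1 CPM in PS. The remaining genes without overlap were Ccl12 (0.76) and Xcl1 (0.94), higher in every PS lung, and Cxcr6 (−0.44), lower in every PS lung, with edgeR adjusted p of 0.227, 0.217 and 0.209.

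**Figure D3:**
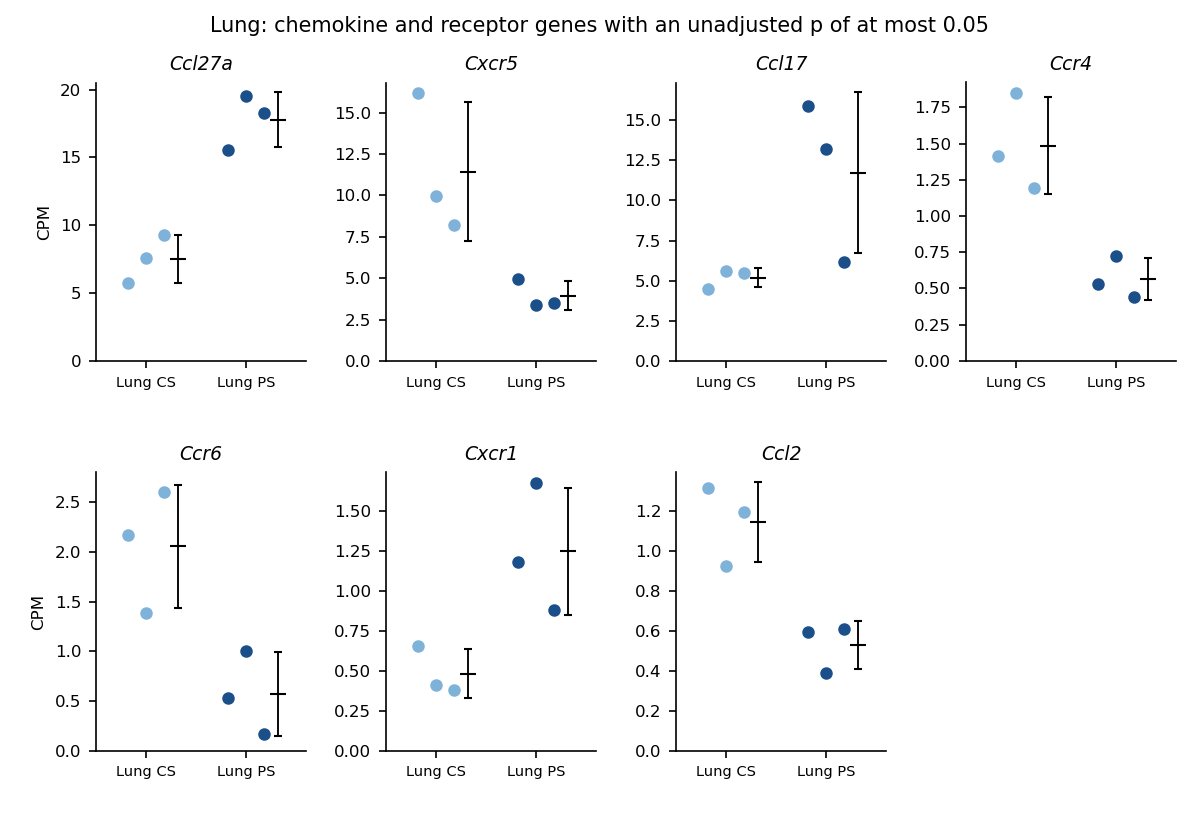
CPM in each lung library (points) and group mean with SD (bars) of the 7 genes with an unadjusted p of at most 0.05, CS beside PS. For each of the 7 the PS lungs lie entirely above (Ccl27a, Ccl17, Cxcr1) or entirely below (Cxcr5, Ccr4, Ccr6, Ccl2) the CS lungs.

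Several inflammatory ligands varied widely between the lungs of 1 diet group. Lung CS 1 was the highest CS lung for 29 of the 45 genes (64.4%, against 37.6% of all genes tested), and Lung PS 1 the highest PS lung for 27 (60.0%, against 35.0% of all genes). Lung PS 3 was the lowest PS lung for 30 (66.7%, against 31.2% of all genes). Cxcl9, an interferon-induced ligand of Cxcr3, had 10.9, 3.44 and 3.69 CPM in CS and 17.6, 7.54 and 1.71 CPM in PS lungs. Cxcl10, which shares this receptor, had 6.77, 1.75 and 2.497 CPM in CS and 8.76, 5.92 and 1.71 CPM in PS. Cxcl2, a neutrophil ligand, had 3.29, 0.103 and 0.109 CPM in CS and 2.13, 0.837 and 0.441 CPM in PS. In all 3 genes Lung CS 1 and Lung PS 1 were the highest of their groups, and the groups overlapped. Cxcr3 itself varied less, at 6.22 to 9.40 CPM in CS and 5.98 to 7.20 CPM in PS.

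The following ligands and receptors overlapped between CS and PS lungs. Cxcl12 ranged from 142 to 207 CPM in CS and from 105 to 174 CPM in PS, and Cxcr4 from 61.9 to 94.3 and from 63.3 to 103 CPM. Cx3cl1 ranged from 42.1 to 65.7 CPM in CS and from 34.8 to 51.5 CPM in PS, and its receptor Cx3cr1, found on monocytes, from 15.01 to 25.8 and from 12.5 to 30.3 CPM. Cxcl16 ranged from 62.1 to 90.9 CPM in CS and from 73.0 to 79.8 CPM in PS; it shares 552 exon bases with Zmynd15 on the other strand, which rose in PS lungs (log2 fold change 1.41, edgeR adjusted p = 0.0352). Ccr7 ranged from 14.1 to 31.7 CPM in CS and from 8.001 to 17.1 CPM in PS (−0.70, edgeR adjusted p = 0.218). Of the 16 receptors tested, 7 had a higher and 9 a lower fitted level in PS.

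Ccl19 and Ccl21, the ligands of Ccr7 that draw lymphocytes into lymph nodes, could not be assigned to single genes. The Ccl21a entry on the scaffold JH584294.1 had 3.94, 17.5 and 13.5 CPM in CS and 6.92, 5.75 and 2.15 CPM in PS lungs (log2 fold change −1.23, SE 0.57, edgeR adjusted p = 0.182). Gm10591, whose transcript matched Ccl21b over 402 bases at 100% identity and Ccl21a at 99.5%, had 7.13, 6.78 and 1.03 CPM in CS and 47.5, 1.06 and 7.50 CPM in PS. The 9 entries of the Ccl21 family and its near-identical genes summed to 11.6, 24.5 and 15.7 CPM in CS and 55.6, 8.15 and 10.1 CPM in PS. The sum was highest in Lung PS 1 and lowest in Lung PS 2, and its log2 fold change was 0.51 (SE 0.79, edgeR adjusted p = 0.704), the opposite sign to the single entry. The 6 entries of the Ccl19 family summed to 1.67, 1.13 and 1.57 CPM in CS and 8.64, 1.12 and 3.64 CPM in PS. For Ccl27 the 8 entries summed to 5.91, 7.66 and 9.61 CPM in CS and 16.5, 19.9 and 18.7 CPM in PS, and the call was kept (log2 fold change 1.25, edgeR adjusted p = 0.0220).

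**Figure D4:**
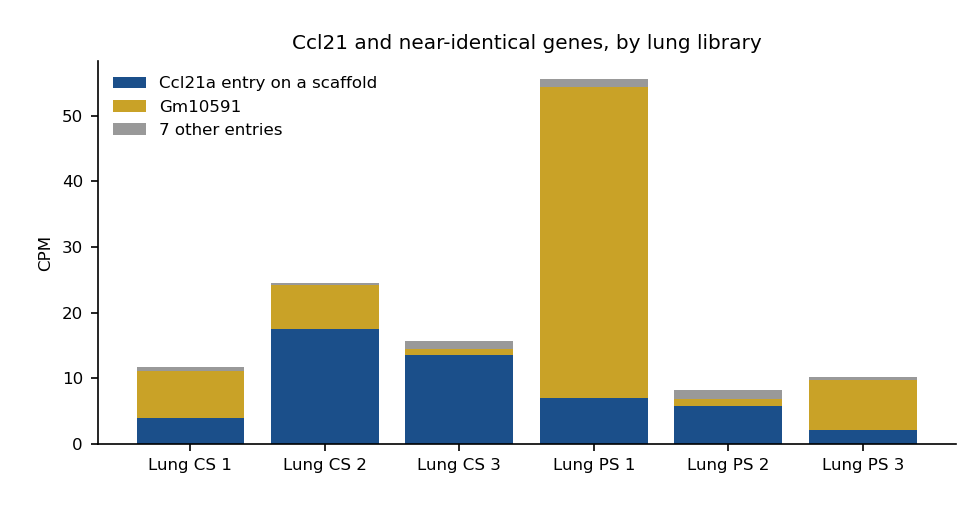
CPM of the Ccl21 entries and of near-identical genes in each lung, stacked so that the bar height is the family sum. Most of the 55.6 CPM in Lung PS 1 is counted under Gm10591 (47.5 CPM), and most of the 24.5 CPM in Lung CS 2 under the scaffold entry of Ccl21a (17.5 CPM).

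In the liver no chemokine or receptor passed the adjusted threshold. Of the 63 entries, 17 were tested, 12 had no count in any liver, 10 had at most 3 counts in any liver and 24 more were too low, with at most 37 counts in a library. The 17 were 13 ligands and 4 receptors, Cxcr4, Ccr2 and Xcr1 among them. At an edgeR adjusted p under 0.05, 0 of the 17 were called, against 1 of all 13195 genes (0.00758%). DESeq2 also called 0, against 1.24% of all genes. At an unadjusted p of at most 0.05, 2 were called (11.8%, against 7.55% of all genes), and for 0 of the 17 did the 4 CS and 5 PS livers not overlap (3.63% of all genes). The median log2 fold change was −0.12, with 7 higher and 10 lower, against −0.03 over all genes.

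Cxcl9, an interferon-induced ligand for T cells, had 7.89, 10.6, 4.24 and 3.97 CPM in the CS livers and 12.1, 10.9, 10.2, 20.1 and 8.49 CPM in the PS livers. Of the 5 PS livers, 4 lay within 8.49 to 12.1 CPM, close to the higher CS livers, and Liver PS 4 was the highest of all. The log2 fold change was 0.89 (SE 0.35, edgeR adjusted p = 0.566). Cxcl10, which is also induced by interferon, was at 1.22 to 3.64 CPM in CS and 1.92 to 4.38 CPM in PS, with overlapping groups (log2 fold change 0.30, edgeR adjusted p = 0.927). Cxcl11 is annotated as a polymorphic pseudogene in this strain and was not a member, and its counts ranged from 19 to 203 in the CS livers, with the 203 in Liver CS 2, and from 46 to 124 in the PS livers.

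Cx3cl1 had 0.883, 1.68, 0.987 and 0.640 CPM in the CS livers and 0.541, 0.682, 0.641, 0.449 and 0.398 CPM in the PS livers. The lowest CS liver lay within the PS values and the other 3 lay above them (−0.93, SE 0.43, edgeR adjusted p = 0.660). The highest value was that of Liver CS 2, and leaving it out gave −0.62 (SE 0.44, edgeR adjusted p = 0.522), no longer past the unadjusted threshold. Liver macrophage markers had a lower fitted level in PS for all 11 tested, 3 of them at an unadjusted p of at most 0.05 (Csf1r, C1qa and Clec4f, against 7.55% of all genes) and none at the adjusted threshold. Their median log2 fold change was −0.65, none of the 12 on the list was at 0, and they summed to 267 to 407 CPM in CS and 101 to 328 CPM in PS livers. The part of macrophage content in the values of the macrophage ligands Ccl6 and Ccl9 was not tested.

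Cxcl1, a neutrophil ligand, varied widely between livers, with 1.93, 15.5, 1.04 and 2.11 CPM in CS and 37.2, 3.98, 13.6, 8.54 and 11.8 CPM in PS livers. Liver CS 2 lay within the PS range, and the other 3 CS livers lay below every PS liver. With all 9 livers the log2 fold change was 1.55 (SE 0.81, edgeR adjusted p = 0.713). Without Liver CS 2, it was 3.13 (SE 0.67, edgeR adjusted p = 0.0658), and that of Cxcl9 was 1.20 (SE 0.33, edgeR adjusted p = 0.136). Without this library 4 members had an unadjusted p of at most 0.05 (Cxcl1, Cxcl9, Ccl25 and Ccl6), against 14.1% of all genes, and still none passed the adjusted threshold. Without Liver CS 3 the count was 0, against 7.89% of all genes.

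Liver CS 2 was the highest CS liver for 10 of the 17 genes (58.8%, against 36.8% of all genes tested). It had 15.4 CPM of Ccl5 (2.37 to 3.81 in the other CS livers), 13.7 CPM of Cxcl13 (1.09 to 3.15), 33.3 CPM of Ccl27a (5.46 to 11.6) and 7.82 CPM of Ccl25 (2.902 to 3.81), and the lowest Cxcl12 of all livers at 137 CPM. Its T cell markers summed to 18.1 CPM, the highest of all livers, and its B cell markers to 8.09 CPM. Among the PS livers, Liver PS 1 had the highest Cxcl1 at 37.2 CPM and Liver PS 5 the highest Cxcl13 at 8.49 CPM, against 0.583 to 1.52 in the other PS livers. The other liver genes overlapped: Cxcl12 had 137 to 367 CPM in CS and 194 to 327 CPM in PS, Ccl9 22.8 to 46.7 and 31.4 to 63.9 CPM, and Ccl6 2.76 to 9.92 and 1.57 to 6.80 CPM.

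**Figure D5:**
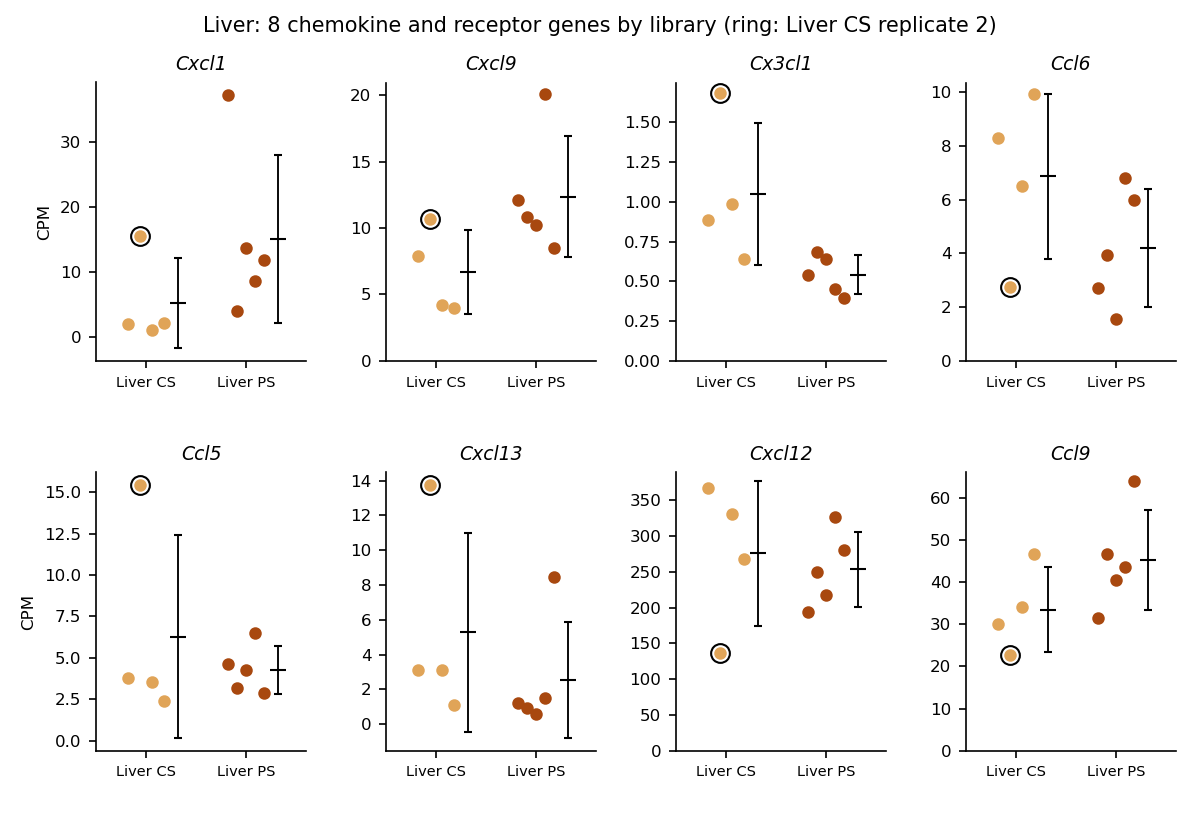
CPM in each liver library (points) and group mean with SD (bars) of 8 genes tested in the liver, CS beside PS, with a ring around Liver CS 2. For Cxcl1, 3 CS livers at 1.04 to 2.11 CPM lie below all PS livers (3.98 to 37.2 CPM) and Liver CS 2 (15.5 CPM) lies among them.

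Whether the diet difference itself differed between lung and liver was tested in 1 fit over the 4 groups. Only the 16 genes that passed the filter in each tissue alone had enough counts in both. Of these, 0 were called at an edgeR adjusted p under 0.05 (0.0323% of the 12398 genes that passed in both) and 0 at an unadjusted p of at most 0.05 (11.4%). The other 30 of the 46 genes in the fit had few or no counts in 1 tissue, so that a difference in them could hardly be estimated. Over all 46, 0 passed the adjusted threshold, against 4 of all 17696 genes (0.0226%), and 3 the unadjusted one (6.52%, against 10.9% of all genes), namely Ccr9, Ccl17 and Ccr1, and DESeq2 also gave 3 at that threshold. Ccl17 rested on Liver CS 2, where it had 0.606 CPM, while only 1 other liver had any count, and the estimate went from 3.44 with all libraries to −1.66 without it (edgeR adjusted p = 0.819). Ccr1 went from 1.77 to 0.88 (SE 0.75, edgeR adjusted p = 0.757) and Ccr9 from −2.81 to −2.47 (SE 1.29, edgeR adjusted p = 0.559) without that library, so that none of the 3 was past the unadjusted threshold. The genes that changed in the lung, Ccl27a and Cxcr5, were not called. Ccl27a ranged from 5.46 to 33.3 CPM in CS and from 6.18 to 29.1 CPM in PS livers. The 33.3 was that of Liver CS 2, and the other CS livers lay at or under 11.6 CPM. The liver log2 fold change of Ccl27a was 0.10 (SE 0.57) with all livers. Without Liver CS 2 it was 0.98 (SE 0.46, edgeR adjusted p = 0.364). Cxcr5 was at or under 0.441 CPM in every liver.

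The proteins around the receptors were described from lists of atypical receptors, of platelet chemokines with other names and of signaling components. Most atypical receptors bind chemokines without classical signaling, and some of them lower the local chemokine level. Of 5 tested in the lung, Ackr2, a scavenger of inflammatory CC chemokines, rose from 42.2 ± 7.20 to 64.4 ± 3.82 CPM (SD, n = 3 each, log2 fold change 0.61, edgeR adjusted p = 0.0475). The call was lost when any 1 of the 6 lungs was left out (adjusted p between 0.0541 and 0.156). Ackr3, which takes up Cxcl12, had 47.4 ± 5.34 CPM in CS and 36.5 ± 4.42 CPM in PS (SD, n = 3 each, −0.38, edgeR adjusted p = 0.147). In the liver all 4 tested had a lower fitted level in PS and none passed; Ackr2 had 4.54 ± 1.99 CPM in CS (SD, n = 4) and 1.86 ± 0.645 CPM in PS (SD, n = 5, −1.29, edgeR adjusted p = 0.344). The platelet chemokines Pf4 and Ppbp overlapped in level between the lung groups, with edgeR adjusted p of 0.398 and 0.615.

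Of 39 signaling components tested in the lung, 2 rose and 4 fell at the adjusted threshold, against 9.22% of all genes. Rasgrp2, an activator of Rap GTPases, rose by 1.52 on the log2 scale (edgeR adjusted p = 0.0406) and Arrb2, a beta-arrestin that takes receptors off the surface, by 0.93 (edgeR adjusted p = 0.0214). The G protein subunits Gnai3 (−0.55), Gnaq (−0.56) and Gng2 (−0.65) and the Rac activator Tiam1 (−0.71) fell. Without Lung CS 1, CS 2, CS 3 or PS 2, 0 of these 6 passed, with their direction kept. The median log2 fold change of the list was 0.04. In the liver 36 were tested and none passed the adjusted threshold, with 1 higher (Rap1a) and 2 lower (Gng2 and Pik3cd) at an unadjusted p of at most 0.05, which is 3 of 36 against 7.55% of all genes. Of the 36, 9 had a higher and 27 a lower fitted level, with a median of −0.16. Among liver marker lists, all 8 T cell, all 5 dendritic cell and 7 of 8 endothelial markers tested had a lower fitted level in PS. All 3 neutrophil and 4 of 5 red blood cell markers had a higher one, and the 8 hepatocyte markers split into 4 and 4.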

How the data were processed

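RNA of whole liver and lung was captured on poly-T beads, and 150-base read pairs were sequenced. Per the labels and methods, the authors aligned the reads with HISAT2 2.0.5 to mm10, counted them per gene with featureCounts 1.5.0-p3 and deposited the counts as raw whole numbers. They also deposited FPKM values, which are the counts divided by gene length and by 1 factor per library, and these were used for levels between genes and their sums, for the correlation between libraries and in the limma alternatives. The gene model and the strand setting were not given in the sources used here.

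The raw counts were filtered with filterByExpr, scaled by TMM and tested with edgeR 4.0.16 (robust quasi-likelihood, R 4.3.3), PS against CS in each tissue, with Benjamini-Hochberg adjustment over all genes tested. The difference between tissues, and lung against liver on CS, were fitted over all 15 libraries. CPM are on the TMM scale of each tissue. Calls were counted at an adjusted p under 0.05 and an unadjusted p of at most 0.05. In the text, diet fold changes from all libraries of a tissue are printed for members with a p of at most 0.1. They are also printed for Cxcl10 and Ccl27a in the liver. Values per library are given for members past those thresholds, for the 6 of highest FPKM per tissue and for the main ligand and receptor pairs; Cxcl5 and Cxcl2 were added after their values were seen. DESeq2 1.42.0 and limma 3.58.1 served as alternatives, and the scripts were tested on simulated counts. The members and gene lists were chosen with earlier results of these data known. One member was counted in the totals and is not reported here by its values.

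The 6 mice that gave both tissues are paired by the mouse number in the labels. The deviations of liver and lung of the same mouse correlated between −0.09 and 0.14.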

Additional observations from a re-analysis of the deposited data

Results flagged for a closer look

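In the livers, 5 of 34 sets of group values tested for a single library far from the rest held one (14.7%, against 7.76% of the sets over all liver genes tested); chance gives about 1 in 20. Of the 5, 3 were Liver CS 2, which stood apart over all genes, so these are not independent. The statistic is the gap between that library and the nearest other, divided by the range of the group. Liver CS 2 was the highest CS liver for Cxcl1 (15.5 CPM, 1.04 to 2.11 in the others, statistic 0.926), for Ccl5 (15.4 CPM, 2.37 to 3.81 in the others, 0.89) and for Cxcl13 (13.7 CPM, 1.09 to 3.15 in the others, 0.838). Liver PS 1 was the highest PS liver for Cxcl1 (37.2 CPM, 3.98 to 13.6 in the others, 0.71, just above the limit for 5 values). Liver PS 5 was the highest PS liver for Cxcl13 (8.49 CPM, 0.583 to 1.52 in the others, 0.882). The cause of these values was not tested.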

How the results depend on the processing

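In the liver, 0 members passed the adjusted threshold under every alternative run. The liver count at the unadjusted threshold (2) was 5 with limma on log2(FPKM + 1), 4 with a pseudocount of 0.1, 1 with the GC trend removed and 6 with all 15 libraries in 1 fit, where 7.97%, 7.8%, 7.43% and 10.7% of all genes passed, and the liver median (−0.12) was 0.086 with at least 10 counts required in every library. In the lung, the adjusted count (2) was 4 with DESeq2, 4 without the filter and 0 with all 15 libraries in 1 fit (18.5%, 8.02% and 0.00565% of all genes, against 9.22%), and the unadjusted count (7) was 3 with at least 10 counts required and 4 with all 15 libraries (30.9% and 13.5% of all genes). The Ccl21a scaffold entry turned from −1.23 to 0.51 when near-identical genes were summed, a setting chosen after seeing the data. Of lung against liver, the count higher in the liver (7) was 2 with library totals in place of TMM, and 2 with library totals and without Liver CS 2, where Ccl27a (0.0066), Ccl25 (0.15) and Cxcl9 (0.13) turned; both settings were chosen after seeing the data. The cause of these shifts was not tested, except that fits over all libraries share 1 estimate of the spread and stricter filters test fewer genes. Leaving out 1 library gave 0 to 4 liver and 5 to 12 lung genes at the unadjusted threshold (5.2% to 14.1% and 21.5% to 35.5% of all genes). At the adjusted one it gave 0 to 3 lung genes (0% to 17.1% of all genes). It gave 26 to 30 genes higher in the lung and 6 to 8 higher in the liver. The liver median then ranged from −0.36 to 0.062 and the lung median from −0.14 to 0.08. For the difference between tissues it gave 0 to 3 genes at the unadjusted threshold, and the estimate of Ccl17 (3.44) ranged from −1.66, without Liver CS 2, to 6.26, without Liver PS 5.

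With the mouse as a block over the 12 paired libraries, 1 gene in place of 3 had a difference between tissues at the unadjusted threshold, and lung against liver gave 26 and 7 genes. Within a tissue, replicate numbers did not pair the samples (correlations of deviations from −0.41 to −0.02 for livers, from −0.01 to 0.09 for lungs). With the replicate number as a block, 0 liver and 2 lung genes passed the adjusted threshold (0% and 9.71% of all genes). At the unadjusted one, 2 liver and 8 lung genes passed (3.69% and 29.7% of all genes).

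Members below the filter on low counts, 46 of the liver and 18 of the lung table, were not tested in the fits reported. In alternatives that tested some of them, none passed the adjusted threshold. At the unadjusted one were Cxcr3 in the liver and Ccl19 in the lung without the filter, Ccl3, Ccr1, Ccr7, Ccr9 and Cxcr3 in the liver with all 15 libraries in 1 fit, Ccl19 with near-identical genes summed and a Ccl21c entry without Lung PS 3. Ccl3 had 3 to 8 counts in the CS livers and 0 to 2 in the PS livers.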

Other observations

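Grouped by function, the chemokines and receptors had these diet medians in the lung. The Ccr4 and Ccr8 axes had a median log2 fold change of 0.37 over 3 tested genes, the Cxcr3 axis 0.57 over 3, the neutrophil group 0.24 over 6 and the macrophage and T cell group 0.26 over 7. The monocyte group had −0.11 over 6, the epithelial and mucosal group −0.23 over 9 and the lymphoid tissue group −0.97 over 4, where the only gene past the adjusted threshold was Cxcr5. With copies and near-identical genes summed, this last median was 0.26 over 5. The Cxcl12 axis had −0.05 over 2 and the Cxcl16 and Xcl1 axes 0.06 over 4.

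Other cell markers also differed in level between libraries. T cell markers summed to 87.2 to 120 CPM in CS and 92.5 to 135 CPM in PS lungs, with 8 of 9 higher in PS and none at an unadjusted p of at most 0.05. Natural killer cell markers summed to 34.8 to 75.3 CPM in CS and 29.4 to 42.6 CPM in PS lungs, with 1 of 7 lower at that threshold, which 30.1% of all genes passed. Macrophage markers summed to 527 to 584 CPM in CS and 496 to 771 CPM in PS lungs, with 7 of 10 higher, 3 of them at that threshold (Csf1r, Mrc1 and C1qa), while Adgre1 was lower (−0.81, edgeR adjusted p = 0.0448). Fat cell markers summed to 23.3 to 157 CPM in CS and 8.001 to 125 CPM in PS lungs, with none of 6 past that threshold.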
